A study of Mus musculus with 46 samples.

Results

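The subject is a set of 10 genes of choline uptake and phosphatidylcholine metabolism, followed through mouse visceral fat during and after corticosterone excess. They are Slc5a7, Slc44a1, Slc44a2, Gpcpd1, Chka, Chkb, Pcyt1a, Chpt1, Pemt and Lpcat3. The genes were chosen by name with results of these data in view, since the large change of Slc5a7 at 5 weeks was already known. Values at 5 weeks are therefore a description here and support nothing further. All 10 were among the 24338 gene symbols of the expression table and among the 15601 symbols that passed the filter on low values.

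Choline enters cells through carriers and is built into phosphatidylcholine, the main phospholipid of cell membranes and of the shell of lipid droplets, by the CDP-choline (Kennedy) pathway. In that pathway choline kinase makes phosphocholine, CTP activates it to CDP-choline, and a cholinephosphotransferase joins it to diacylglycerol. Liver can also make phosphatidylcholine by methylating phosphatidylethanolamine, lysophosphatidylcholine can be given a new acyl chain, and full removal of both chains leaves glycerophosphocholine, which is cleaved to release choline again.

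RNA was measured in 20 libraries of mouse visceral adipose tissue, 5 in each of 4 groups. CORT_5w mice received corticosterone, the main glucocorticoid of rodents, and stand for active Cushing's syndrome at 5 weeks, and CORT_15w mice stand for the recovered state at 15 weeks. VEH_5w and VEH_15w are the controls of the same times, named for the vehicle. Strain, sex, age, dose and route are not given in the sources used here, and all groups lacked the Drosophila spike-in that the 26 ChIP-seq samples of the same tissue carried. The labels number the replicates without saying that they came from separate animals, so p-values measure the spread between these libraries, which may be technical.

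Levels are in FPKM, fragments per kilobase of gene length scaled per library, so they can be compared between genes. Depth was 25.1 to 42.6 M reads per library, and 37.6 ± 5.16 M in CORT_5w against 29.95 ± 3.82 M in VEH_5w (mean ± SD, n = 5). The fat cell hormone gene Adipoq lay between 1641 and 4016 FPKM throughout. Transcripts of other tissues stood high in 7 libraries, which are CORT_5w replicates 2, 3 and 4, VEH_5w replicate 3, CORT_15w replicates 1 and 5 and VEH_15w replicate 5. Alb of liver reached 2095 FPKM in the first of these, and Prm2 of testis or Crisp1 of epididymis exceeded 100 or 500 FPKM in the others. The groups hold 2, 4, 3 and 4 libraries without them, in the order CORT_5w, VEH_5w, CORT_15w and VEH_15w. In bulk tissue, fewer cells of a type and less RNA per cell cannot be told apart.

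A gene is called where limma's trend test on log2(FPKM + 1), adjusted by Benjamini-Hochberg over all 15601 genes, gave an adjusted p below 0.05. Fold changes are log2 of CORT over VEH on that scale with their standard error (SE), and the scale understates the change of low genes. A gene said to rise or fall at a time was higher or lower in CORT than in VEH of that time, which is no change over time.

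Promoter sequences help to compare 3 genes that were high in CORT_5w, namely Slc5a7 with the largest fold change, Pcyt1a with the one motif match of the set, and Lpcat3. The windows, taken from RefSeq on GRCm38.p6, run from 250 bases before to 50 bases after the start site, 5′ to 3′ on the strand of the gene. They lie at chr17:54298985-54299284 on the minus strand for Slc5a7, at chr16:32430671-32430970 on the plus strand for Pcyt1a and at chr6:124662854-124663153 on the plus strand for Lpcat3. The capitals in the Pcyt1a window mark a sterol response element.
Slc5a7: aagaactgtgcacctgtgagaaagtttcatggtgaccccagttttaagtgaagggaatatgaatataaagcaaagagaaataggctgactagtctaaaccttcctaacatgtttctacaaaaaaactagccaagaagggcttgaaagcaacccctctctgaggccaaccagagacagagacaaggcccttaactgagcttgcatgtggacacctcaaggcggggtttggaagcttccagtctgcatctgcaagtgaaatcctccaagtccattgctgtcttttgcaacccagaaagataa
Pcyt1a: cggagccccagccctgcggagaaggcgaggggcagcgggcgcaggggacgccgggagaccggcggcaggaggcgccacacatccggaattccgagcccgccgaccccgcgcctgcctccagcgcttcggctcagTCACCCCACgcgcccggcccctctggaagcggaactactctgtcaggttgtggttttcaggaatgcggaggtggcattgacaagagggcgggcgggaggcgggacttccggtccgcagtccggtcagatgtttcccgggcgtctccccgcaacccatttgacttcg
Lpcat3: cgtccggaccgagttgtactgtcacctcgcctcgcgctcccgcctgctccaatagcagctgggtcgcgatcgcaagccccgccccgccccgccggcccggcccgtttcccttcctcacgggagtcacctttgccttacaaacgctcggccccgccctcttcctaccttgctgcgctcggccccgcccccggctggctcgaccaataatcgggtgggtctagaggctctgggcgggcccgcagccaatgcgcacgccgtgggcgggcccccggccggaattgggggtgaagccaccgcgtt

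Of the 10 genes, 9 matched a RefSeq promoter entry, all but Gpcpd1, with 14 windows between them. Both strands were searched for the sterol response element TCACNCCAC, the E-box CACGTG, the glucocorticoid response element (GAACA, any 3 letters, TGTTC) and the PPAR element (AGGTCA repeated with any 1 letter between). Matches were found in 2 windows, both of Pcyt1a, and both are the same site, whose first base lies at -116 from the start site of the window shown and at -215 from the next start site. Over all 32851 mouse promoter windows of 300 bases, the sterol response element occurs in 1.24%, the E-box in 7.15%, the glucocorticoid response element in 0.0578% and the PPAR element in 0.0396%. The match is a description of letters, and the absence of a match concerns this window alone.

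In vehicle libraries the 10 genes spanned a wide range of levels. Chpt1, the cholinephosphotransferase of the last step of the Kennedy pathway, was the most abundant at 410 ± 68.0 FPKM (mean ± SD over the 10 vehicle libraries). Gpcpd1 followed at 59.7 ± 16.5 FPKM, then Slc44a1 at 25.0 ± 3.79, Lpcat3 at 20.9 ± 1.96, Pcyt1a at 16.5 ± 1.42 and Slc44a2 at 13.6 ± 1.82 FPKM. The lowest were Chka at 6.40 ± 1.97, Pemt at 3.57 ± 0.921, Chkb at 0.578 ± 0.131 and Slc5a7 at 0.233 ± 0.145 FPKM. Ranges of neighbours in this order overlapped except between Chpt1 and Gpcpd1, between Gpcpd1 and Slc44a1, and between Pemt and Chkb.

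At 5 weeks 4 of the 10 genes were called higher in CORT, where 22.3% of all genes tested were, and 2 were called lower, where 21.5% were. The groups did not overlap for 5 of them, against 28.9% of all genes. Slc5a7, Pcyt1a, Pemt and Lpcat3 were higher, and Gpcpd1 and Slc44a1 lower. At 15 weeks 1 gene, Slc5a7, was called higher (3.83% of all genes) and 2, Gpcpd1 and Chpt1, lower (6.8%), and all 3 had groups without overlap (8.07% of all genes). Slc5a7 and Gpcpd1 were called in the same direction at both times, as were 6.9% of all genes. The median log2 fold change of the 10 genes was 0.07 at 5 weeks and 0.00 at 15 weeks, beside 0.01 and 0.00 over all genes.

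The effects of the 2 times were compared in an interaction term, 15 weeks minus 5 weeks. It includes the 5-week values known when the genes were chosen, so its calls are a description too. Of the 10 genes 0 were called upward (6.57% of all genes) and 3 downward (10.1%), which were Slc5a7, Pcyt1a and Lpcat3. Between the CORT groups, 15 weeks against 5 weeks, 0 were called higher (19.2% of all genes) and 5 lower (22.9%), namely Slc5a7, Pcyt1a, Chpt1, Pemt and Lpcat3. Between the VEH groups 0 of the 10 were called, with log2 differences from -0.07 to 0.50, and 0.0128% of all genes were. At an unadjusted p below 0.05, limma had 1 of the 10 in that contrast, Gpcpd1, and voom called 0. Scaling by total reads moved the balance of calls over all genes, from 598 higher and 1061 lower to 1074 and 623 at 15 weeks, from 1025 and 1575 to 1782 and 938 for the interaction, and from 2992 and 3577 to 4136 and 2533 between the CORT groups. Without the 7 libraries with other tissue, 4 of the 10 genes were called at 5 weeks (28.2% of all genes) and 2 at 15 weeks (0.955%).

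**Figure D1:**
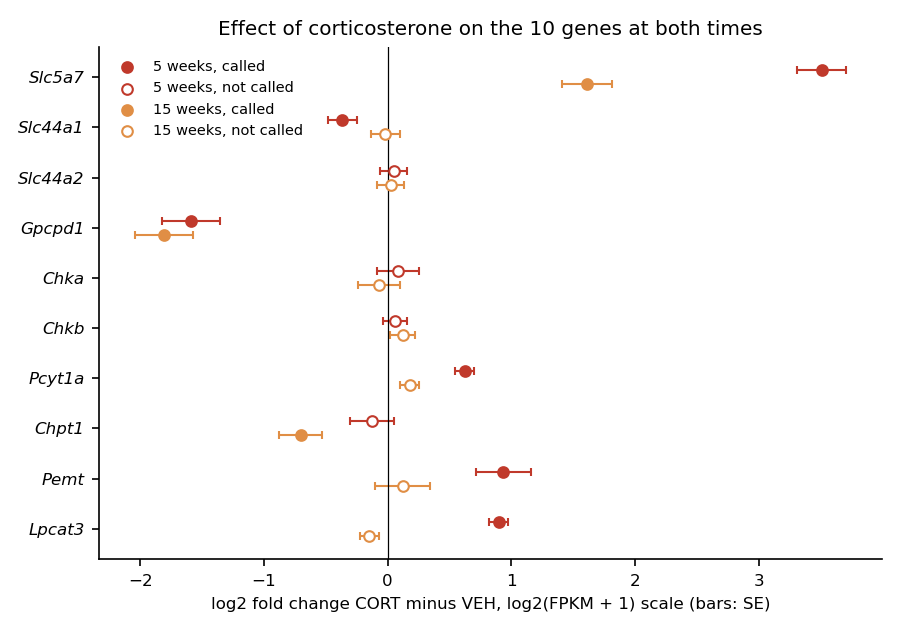
Log2 fold change of CORT over VEH on the log2(FPKM + 1) scale (x axis) for the 10 genes (y axis) at 5 weeks (red) and 15 weeks (orange); points are the fitted values, bars their SE, and filled points are called. Slc5a7 lies at 3.51 and 1.61, Gpcpd1 at -1.59 and -1.81, and Lpcat3 at 0.90 and -0.15.

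Slc5a7 encodes the high-affinity choline transporter best known from cholinergic nerve endings, where it feeds acetylcholine synthesis. In CORT_5w replicates 1 to 5 it stood at 19.0, 13.8, 12.1, 11.3 and 10.1 FPKM. Vehicle libraries of that time held 0.209, 0.172, 0.201, 0.320 and 0.228 FPKM, from 27 to 54 reads each. Every CORT library lay far above every vehicle library, and the ratio of group means was 58.7. The log2 fold change was 3.51 (SE 0.20), and the authors' deposited table gives 5.87 (SE 0.23) without a pseudocount of 1.

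At 15 weeks the CORT libraries held 3.15, 4.70, 1.52, 1.66 and 3.69 FPKM of Slc5a7. The matching vehicle libraries held 0.585, 0.230, 0.197, 0.177 and 0.0148 FPKM, the last from 3 reads. The groups again did not overlap, and neither did the CORT groups of the 2 times, whose means were 13.2 ± 3.46 and 2.94 ± 1.36 FPKM (SD, n = 5). Slc5a7 was thus higher in CORT than in VEH at 15 weeks, by 1.61 on the log2 scale (SE 0.20, limma adjusted p = 0.000608), with a ratio of means of 12.2. The authors' deposited table gives a log2 fold change of 3.62 (SE 0.63) at that time. Of the vehicle libraries only VEH_15w replicate 1 reached the 0.5 FPKM of the filter, so Slc5a7 was tested because of its CORT values. Its adjusted p at either time is therefore a description.

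The interaction for Slc5a7 was -1.90 (SE 0.28), called, but with limma's voom on the reads it was -1.60 (SE 0.88, adjusted p = 0.219; other alternatives from 0.000127 to 0.0123). The size of both effects depends on the pseudocount: with 0.1 the log2 fold changes were 5.34 and 3.25, and with 5 they were 1.79 and 0.58, called at both times. Chat, the acetylcholine-making enzyme of cholinergic neurons, lay between 0.00952 and 0.0849 FPKM in every library, and Slc18a3, the vesicular acetylcholine carrier, was at 0 in 18 of 20. The summed level of 9 neuron markers was 6.82 to 17.0 FPKM in CORT_5w and 5.42 to 8.74 in VEH_5w. Of the 4 tested, 3 (Snap25, Tubb3 and Uchl1) were called higher, beside 22.3% of all genes. At 15 weeks the sum was 3.95 to 7.20 FPKM in CORT and 4.48 to 12.8 in VEH. Then 0 of 4 were called, beside 3.83% of all genes higher and 6.8% lower. The part of these markers in the Slc5a7 level was not tested.

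The other carriers among the 10 are Slc44a1 and Slc44a2, choline transporter-like proteins found in many tissues. Slc44a1 stood at 18.02, 21.9, 16.9, 19.9 and 21.2 FPKM in CORT_5w. It stood at 27.9, 20.6, 29.5, 21.9 and 28.3 FPKM in VEH_5w. The groups overlapped, with VEH_5w replicate 2 among the CORT values. The log2 fold change at 5 weeks was -0.36 (SE 0.12), called, and without the 7 libraries it was -0.31 and not called (adjusted p = 0.174).

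At 15 weeks Slc44a1 ranged from 21.1 to 26.1 FPKM in CORT and from 19.9 to 29.0 in VEH, a log2 difference of -0.02 (SE 0.12, limma adjusted p = 0.942). Its interaction was 0.35 (SE 0.17), not called, but with quantile normalization it was 0.53 and with scaling by total reads 0.51, both called (adjusted p = 0.0149 and 0.0175). Slc44a2 kept to 11.1 to 16.3 FPKM in all 20 libraries. Its log2 differences were 0.05 at 5 weeks and 0.02 at 15 weeks (SE 0.11 each, neither called).

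Chka and Chkb encode the choline kinases, which make phosphocholine in the entry step of the Kennedy pathway. Chka ranged from 4.32 to 7.63 FPKM in all other libraries and stood at 11.5 FPKM in VEH_15w replicate 5, 1 of the 7 libraries with other tissue (Prm2 at 570.4 and Crisp1 at 1261 FPKM). The sum of 7 epididymis and testis markers was 3660 FPKM there, and the median of its group was 1.27. The part of that tissue in the Chka value was not tested. Its log2 differences were 0.08 at 5 weeks and -0.07 at 15 weeks (SE 0.17 each), and the latter was 0.12 without that library. Chkb was low, at 0.412 to 0.934 FPKM from 20 to 59 reads, with log2 differences of 0.06 and 0.12 (SE 0.10 each). Neither kinase was called at either time, and at the level of Chkb the pseudocount damps any change.

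Pcyt1a encodes the enzyme that joins phosphocholine to CTP, the step that sets the pace of the Kennedy pathway. It stood at 24.6, 28.7, 21.9, 26.3 and 24.7 FPKM in CORT_5w. The vehicle libraries held 16.1, 15.8, 17.7, 14.7 and 15.7 FPKM. All CORT libraries lay above all vehicle libraries, with a ratio of means of 1.58 and a log2 fold change of 0.62 (SE 0.08).

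At 15 weeks Pcyt1a stood at 18.4, 19.8, 18.9, 18.2 and 20.7 FPKM in CORT. It stood at 18.6, 15.9, 18.01, 17.5 and 14.5 FPKM in VEH. VEH replicate 1 lay within the CORT range and the other 4 below it. The log2 difference was 0.18 (SE 0.08, limma adjusted p = 0.155), and it was called with quantile normalization (0.27, adjusted p = 0.0142) and with scaling by total reads (0.28, adjusted p = 0.00829). The interaction of -0.45 (SE 0.11) was called, but with quantile normalization it was -0.25 and not called (adjusted p = 0.0932).

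Chpt1 performs the final step of the pathway, joining the activated choline to diacylglycerol. At 5 weeks it stood at 307, 441, 429, 303 and 372 FPKM in CORT and at 527, 419, 359, 301 and 424 FPKM in VEH. The groups overlapped widely, with a log2 difference of -0.13 (SE 0.18, not called). At 15 weeks the CORT libraries held 209, 292, 263, 184 and 348 FPKM, all below the vehicle libraries with 423, 378, 502, 353 and 418 FPKM.

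Chpt1 was thus lower in CORT than in VEH at 15 weeks, by 0.70 on the log2 scale (SE 0.18, limma adjusted p = 0.0173), at 259 ± 65.3 against 415 ± 56.8 FPKM. The call was lost without CORT_15w replicate 1 (-0.64, adjusted p = 0.0595), without VEH_15w replicate 3 (-0.63, adjusted p = 0.0521) and without the 7 libraries (-0.76, adjusted p = 0.101). The interaction, -0.58 (SE 0.25, limma adjusted p = 0.116), was not called, so a difference between the times was not shown. In the RefSeq annotation Chpt1 overlaps Sycp3, a meiotic chromosome protein, which fell by 0.59 at 15 weeks (SE 0.14, adjusted p = 0.0142), at 21.6 to 47.4 FPKM. Whether the counting used strand is not given in the sources used here, so reads of the overlap may belong to either gene.

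**Figure D2:**
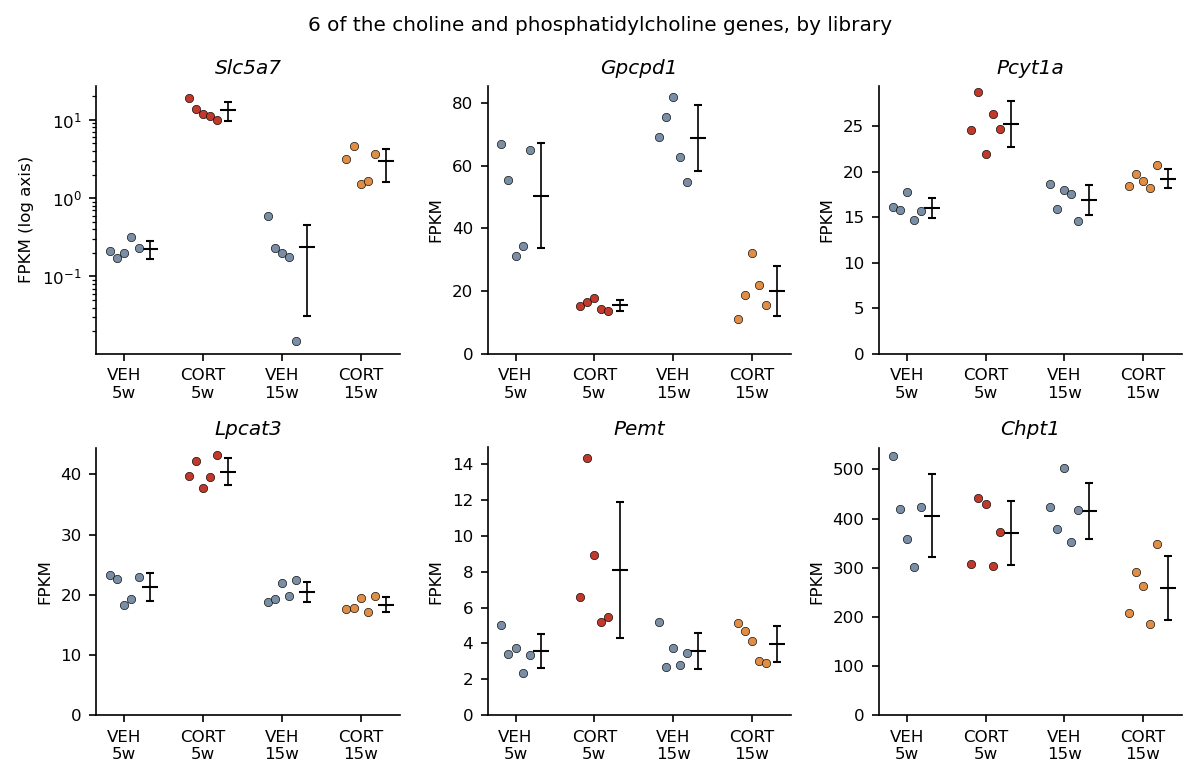
FPKM (y axes; log axis for Slc5a7) of 6 of the 10 genes in the 20 libraries by group (x axes), each point a library, with mean and SD of 5 libraries beside it. Slc5a7 is high in both CORT groups, Gpcpd1 is low in both, Pcyt1a, Lpcat3 and Pemt are high in CORT_5w, and Chpt1 is lowest in CORT_15w.

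Pemt encodes the enzyme that methylates phosphatidylethanolamine to phosphatidylcholine, an activity known chiefly from liver. It stood at 6.60, 14.3, 8.95, 5.22 and 5.45 FPKM in CORT_5w. It stood at 5.01, 3.38, 3.74, 2.36 and 3.34 FPKM in VEH_5w. The groups did not overlap, though the lowest CORT library was close to the highest vehicle library. The log2 fold change was 0.94 (SE 0.22), called.

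The highest Pemt value belongs to CORT_5w replicate 2, in which Alb stood at 2095 FPKM against 3.74 to 51.8 FPKM in the other libraries. In the other CORT_5w libraries Alb stood at 16.8 to 51.8 FPKM, and in VEH_5w at 7.61 to 22.4. The sum of 7 liver markers was 577 to 3745 FPKM in CORT_5w and 2242 to 5838 in VEH_5w, Cyp2e1 alone running from 508 to 5797 FPKM over the 20 libraries. Cyp2e1 made up most of that sum in VEH_5w (mean 3794 FPKM). Of the 7, 2 (Alb and Ttr) were called higher and 1 (Cyp2e1) lower at 5 weeks, beside 22.3% and 21.5% of all genes. The other markers of the list had positive log2 differences from 0.65 to 1.82, not called. The part of liver RNA in the Pemt level was not tested. Without replicate 2 the log2 fold change of Pemt was 0.73, still called (adjusted p = 0.00641), and without all 7 libraries it was 0.66 and not called (adjusted p = 0.0604). At 15 weeks Pemt ranged from 2.88 to 5.14 FPKM in CORT and from 2.67 to 5.17 in VEH, a log2 difference of 0.12 (SE 0.22, limma adjusted p = 0.784). The interaction was -0.81 (SE 0.31), not called, and it was called without VEH_5w replicate 1 (-0.92, adjusted p = 0.0475).

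**Figure D3:**
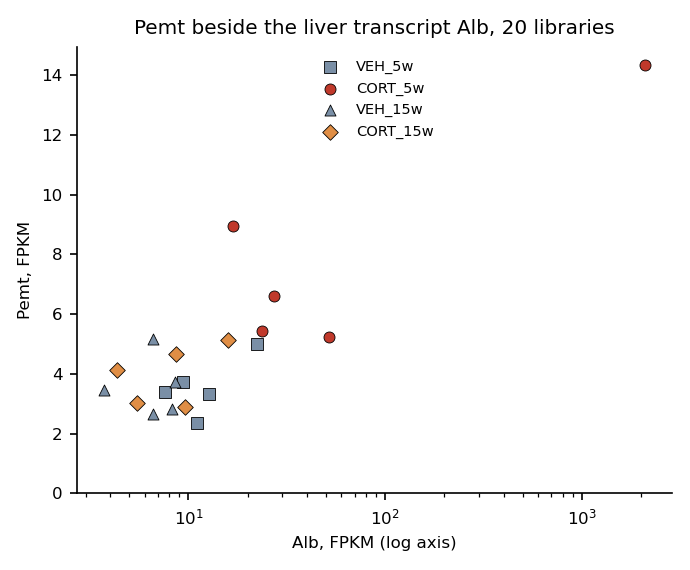
Pemt (y axis, FPKM) against Alb (x axis, FPKM, log axis) in the 20 libraries, with 1 symbol per group. The CORT_5w library with Alb at 2095 FPKM also has the highest Pemt value, 14.3 FPKM, and the other 4 CORT_5w libraries lie between 5.22 and 8.95 FPKM.

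Lpcat3 encodes a lysophosphatidylcholine acyltransferase that puts polyunsaturated chains into phosphatidylcholine. In CORT_5w it stood at 39.7, 42.3, 37.7, 39.5 and 43.2 FPKM. In VEH_5w it stood at 23.3, 22.7, 18.3, 19.3 and 23.0 FPKM. The spread within each group was small beside the gap between them, and the log2 fold change was 0.90 (SE 0.08), a ratio of means of 1.90.

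At 15 weeks the Lpcat3 ranges of CORT and VEH overlapped, at 17.7, 17.8, 19.5, 17.0 and 19.7 FPKM in CORT and 18.7, 19.3, 21.9, 19.8 and 22.5 FPKM in VEH. The log2 difference was -0.15 (SE 0.08, limma adjusted p = 0.240). Its interaction, -1.05 (SE 0.11), was called under all 29 alternatives run, at values from -1.09 to -0.81. Lpcat3 overlaps Emg1, a ribosome biogenesis gene at 13.2 to 25.6 FPKM, whose log2 differences were -0.22 and -0.25 (SE 0.12 each, neither called). Of the other genes, Slc44a2, Chkb and Pemt overlap long noncoding RNAs that were not analysed here.

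Gpcpd1 encodes a phosphodiesterase that splits glycerophosphocholine into choline and glycerol-3-phosphate. It was low in both CORT groups. At 5 weeks CORT libraries held 15.1, 16.5, 17.7, 14.1 and 13.7 FPKM and vehicle libraries 66.8, 55.5, 31.0, 34.2 and 64.9 FPKM. The vehicle values fell into a low pair and a high trio, and even the low pair lay above every CORT library. The log2 fold change was -1.59 (SE 0.23), the vehicle mean being 3.28 times the CORT mean.

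At 15 weeks Gpcpd1 stood at 11.0, 18.8, 32.2, 22.0 and 15.6 FPKM in CORT. It stood at 69.3, 75.7, 81.9, 62.7 and 54.9 FPKM in VEH. Gpcpd1 was lower in CORT than in VEH at 15 weeks, by 1.81 on the log2 scale (SE 0.23, limma adjusted p = 0.000608), again with no overlap and with a vehicle mean 3.46 times the CORT mean. The interaction was -0.22 (SE 0.33, limma adjusted p = 0.688), so that a difference between the times was not shown. Both calls held under all 30 alternatives run, with log2 fold changes from -1.83 to -1.39 at 5 weeks and from -1.996 to -1.56 at 15 weeks.

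Around the 10 genes, 65 further genes of choline and phospholipid metabolism were listed, of which 55 were tested. At 5 weeks 12 were called higher and 5 lower, beside 22.3% and 21.5% of all genes, with a median log2 fold change of 0.08. At 15 weeks 1 was called higher and 7 lower, beside 3.83% and 6.8%, with a median of 0.04. The interaction was called upward for 2 and downward for 6, beside 6.57% and 10.1%. The same shares over all genes apply to each list described next.

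The list of phosphatidylcholine and lysophosphatidylcholine breakdown held 18 genes, all tested, of which 4 were called higher and 3 lower at 5 weeks and 0 higher and 4 lower at 15 weeks (medians 0.00 and -0.09), beside 22.3% and 21.5% of all genes at 5 weeks and 3.83% and 6.8% at 15 weeks. The 4 at 15 weeks were Gde1, Pnpla7, Pnpla8 and Pld1. Gde1, a glycerophosphodiester phosphodiesterase, stood at 57.8 ± 7.88 FPKM in CORT_5w and 161 ± 57.5 in VEH_5w, and at 61.8 ± 25.9 in CORT_15w and 167 ± 23.4 in VEH_15w (SD, n = 5). Its log2 fold changes were -1.39 (SE 0.24) and -1.49 (SE 0.24, limma adjusted p = 0.00199). Both times lacked overlap between the groups, as for Gpcpd1.

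Pnpla7, a lysophospholipase that yields glycerophosphocholine, the substrate of Gpcpd1, stood at 14.04 ± 3.62 FPKM in CORT_5w and 38.4 ± 9.20 in VEH_5w. At 15 weeks it stood at 20.1 ± 5.72 in CORT and 39.3 ± 4.92 in VEH. Its log2 fold changes were -1.39 (SE 0.19) and -0.96 (SE 0.19, limma adjusted p = 0.00513), without overlap at either time. Pnpla8, a calcium-independent phospholipase, fell by 0.78 at 15 weeks (SE 0.18, limma adjusted p = 0.0120), and its difference of -0.41 at 5 weeks was not called. That difference was called without VEH_5w replicate 3 (-0.48, adjusted p = 0.0491) or replicate 4 (-0.56, 0.0129), with quantile normalization (-0.63, 0.00112) and with total reads (-0.47, 0.0164). Pld1, which splits phosphatidylcholine into choline and phosphatidic acid, was called lower at both times, at -0.34 and -0.37 (SE 0.11 each, limma adjusted p = 0.0331 at 15 weeks). The 15-week call of Pld1 was lost without any 1 of CORT_15w replicates 1, 2 and 5 or VEH_15w replicates 2, 3 and 4 (adjusted p from 0.0516 to 0.106), with total reads (0.117) and in a model of the 2 groups (0.121). Without the 7 libraries, the 15-week calls of all 4 genes were lost, with log2 fold changes of -1.17 for Gde1 (adjusted p = 0.0562), -0.74 for Pnpla7 (0.112), -0.65 for Pnpla8 (0.158) and -0.36 for Pld1 (0.108), as was the 5-week call of Pld1 (-0.24, adjusted p = 0.143).

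**Figure D4:**
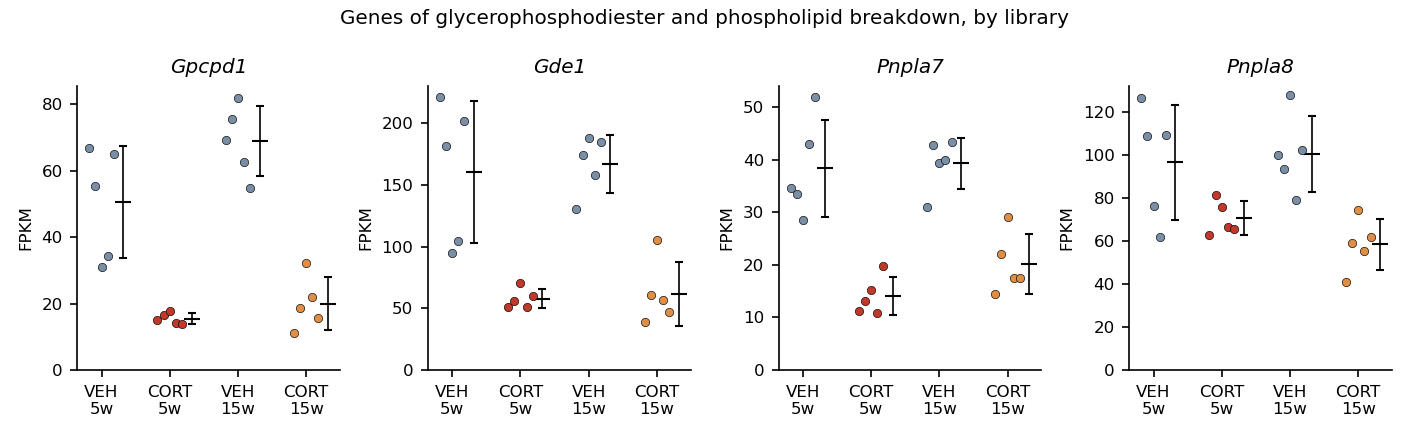
FPKM (y axes) of Gpcpd1, Gde1, Pnpla7 and Pnpla8 in the 20 libraries by group (x axes), each point a library, with mean and SD of 5 libraries beside it. Gpcpd1, Gde1 and Pnpla7 are below the vehicle libraries in every CORT library at both times, and Pnpla8 overlaps its vehicle group at 5 weeks.

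Other breakdown genes were called higher at 5 weeks. Pla2g16, the abundant phospholipase A2 of adipocytes, stood at 168 ± 27.9 FPKM in CORT_5w and 107 ± 23.7 in VEH_5w, a log2 fold change of 0.66 (SE 0.19). Enpp2, or autotaxin, which makes lysophosphatidic acid and choline from lysophosphatidylcholine, had a log2 fold change of 0.37 (SE 0.13) at 5 weeks and -0.16 at 15 weeks, and its interaction of -0.53 (SE 0.18) was called. The 5-week call of Enpp2 was lost without CORT_5w replicate 3, VEH_5w replicate 2 or VEH_5w replicate 4 (adjusted p from 0.0522 to 0.0696), with quantile normalization (0.09, adjusted p = 0.405) and without the 7 libraries (0.189), as was that of Pla2g16 without the 7 libraries (0.52, adjusted p = 0.112).

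Sphingomyelin and lipid transfer genes, 6 in all, included 4 called higher at 5 weeks and 0 lower (median 0.71), beside 22.3% and 21.5% of all genes, and 0 higher and 1 lower at 15 weeks (median 0.18), beside 3.83% and 6.8%. Smpd1, the acid sphingomyelinase, rose at 5 weeks by 0.89 (SE 0.11), from 23.0 ± 2.07 to 43.4 ± 2.66 FPKM. Sgms1, a sphingomyelin synthase, which takes its phosphocholine from phosphatidylcholine, rose by 0.40 (SE 0.10). Both interactions were called, at -0.63 (SE 0.15) and -0.45 (SE 0.14). At 15 weeks Smpd1 stood at 25.7 ± 4.26 FPKM in CORT and 21.3 ± 2.83 in VEH. Sgms1 was alike in the CORT groups, at 20.5 ± 0.824 FPKM at 5 weeks and 20.6 ± 1.37 at 15 weeks. In the VEH groups Sgms1 stood at 15.4 ± 2.13 FPKM at 5 weeks and 21.5 ± 2.96 at 15 weeks, a log2 difference of 0.46 (SE 0.10, not called). Stard7, a phosphatidylcholine transfer protein, fell by 0.31 at 15 weeks (SE 0.09, limma adjusted p = 0.0408). That call was lost without any 1 of CORT_15w replicates 1, 4 and 5 or VEH_15w replicates 1, 2 and 3 (adjusted p from 0.0576 to 0.130), with quantile normalization and total reads (-0.20 each, adjusted p = 0.0783 and 0.0836), in a model of the 2 groups (0.0894) and without the 7 libraries (0.288). Stard7 was called lower at 5 weeks with quantile normalization (-0.23, adjusted p = 0.0144), and Smpd1 was called higher at 15 weeks with quantile normalization (0.38, 0.0209) and total reads (0.36, 0.0122).

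Of 7 lysophospholipid acyltransferases besides Lpcat3, 1 was called higher at 5 weeks (Lclat1, 0.30, SE 0.09) and 1 at 15 weeks (Lpcat1, 0.38, SE 0.09, limma adjusted p = 0.0156), with 0 lower at either time. Lpcat1 makes saturated phosphatidylcholine in lung, and it ranged here from 4.90 to 6.92 FPKM in CORT_15w and from 3.55 to 4.72 in VEH_15w. Its call was lost in a model of the 2 groups (adjusted p = 0.0591) and without the 7 libraries (0.106), as was the 5-week call of Lclat1 without the 7 libraries (0.22, adjusted p = 0.174). Mboat7, which acts on lysophosphatidylinositol, was not called (-0.08 and 0.12, SE 0.09 each).

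Ethanolamine and serine phospholipid genes numbered 10, with 9 tested, of which 2 were higher and 2 lower at 5 weeks and 0 higher and 1 lower at 15 weeks (medians 0.04 and -0.05). Etnk1, an ethanolamine kinase, was called lower at both times, at -0.46 and -0.28 (SE 0.08 each, limma adjusted p = 0.0338 at 15 weeks). The 15-week call of Etnk1 was lost without any 1 of CORT_15w replicates 1, 2, 4 and 5 or VEH_15w replicates 2 and 3 (adjusted p from 0.0536 to 0.0968), with quantile normalization and total reads (-0.17 each, adjusted p = 0.267 and 0.226), in a model of the 2 groups (0.0516) and without the 7 libraries (0.238). Cept1, which finishes both phosphatidylcholine and phosphatidylethanolamine, had log2 differences of -0.16 and -0.41 (SE 0.16 each), and Ptdss1, a phosphatidylserine synthase, 0.10 and 0.00 (SE 0.08 each). Neither was called, except Cept1 at 15 weeks without VEH_15w replicate 4 (-0.53, adjusted p = 0.0403).

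Of 12 genes of choline oxidation and methyl group supply, 10 were tested, and 1 was called higher at 5 weeks and 1 lower at 15 weeks (medians 0.07 and 0.14). Sardh, which oxidises sarcosine, rose at 5 weeks by 1.08 (SE 0.19), from 5.25 ± 0.394 to 12.8 ± 4.95 FPKM, and it was called at 15 weeks with total reads alone (0.58, adjusted p = 0.0434). Ahcy, which clears S-adenosylhomocysteine, the product of the Pemt reaction, fell at 15 weeks by 0.87 (SE 0.25, limma adjusted p = 0.0349), from 21.7 ± 5.85 to 11.1 ± 1.31 FPKM. That call was lost without any 1 of CORT_15w replicates 1, 2 and 5 or VEH_15w replicates 2, 3 and 5 (adjusted p from 0.0568 to 0.0943), with no filter (0.0566) and without the 7 libraries (0.0969). At 5 weeks Ahcy had a log2 difference of -0.47, not called, which became -0.79 and called without CORT_5w replicate 2, the library high in Alb (adjusted p = 0.00106), or without the 7 libraries (0.0133). Mat2a and Mat2b, the subunits of the S-adenosylmethionine synthetase of tissues other than liver, were not called, with log2 differences from -0.28 to 0.11, except Mat2a at 15 weeks without VEH_15w replicate 5 (-0.47, adjusted p = 0.0309).

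Of 8 other choline and lysophosphatidylcholine carriers 4 were tested and 0 were called by limma at either time (medians 0.14 and 0.36). At an unadjusted p below 0.05 there was 1 at each time, Slc44a4 and Slc22a2, and voom called 1 at 5 weeks, Slc44a4, and 0 at 15 weeks. Slc44a3 ranged from 7.82 to 16.4 FPKM in the 20 libraries, with log2 differences of 0.07 and 0.31 (SE 0.16 each). Slc44a4 had -0.99 and -0.44 (SE 0.43 each), the former called with a pseudocount of 0.1 (adjusted p = 0.0462) and without CORT_5w replicate 1 (0.0357), CORT_5w replicate 3 (0.0166) or CORT_15w replicate 2 (0.0444), and Mfsd2a, the lysophosphatidylcholine carrier of the blood-brain barrier, was below the filter. Of 4 acetylcholine genes 1, Bche, for butyrylcholinesterase, passed the filter, at 27.8 to 71.4 FPKM, and it was not called (0.34 and -0.18, SE 0.21 each). Ache, acetylcholinesterase, stood at 0 to 0.600 FPKM.

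**Figure D5:**
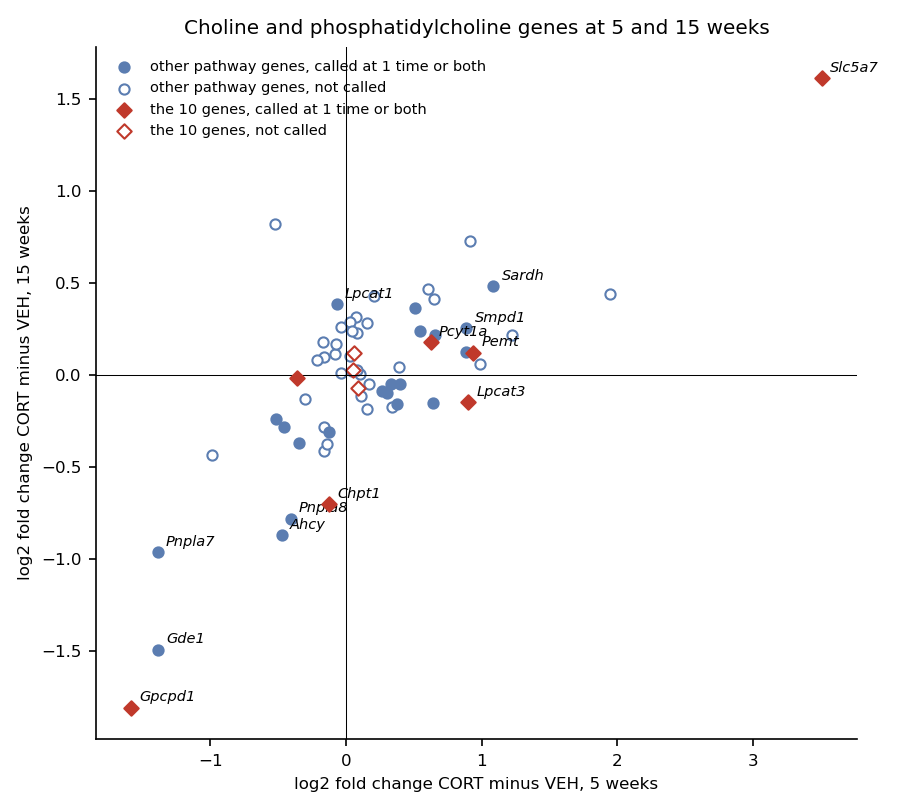
Log2 fold change of CORT over VEH at 5 weeks (x axis) and at 15 weeks (y axis), both on the log2(FPKM + 1) scale, for the 10 genes (red) and the 55 other pathway genes tested (blue); filled points are called at 1 time or both. Slc5a7 lies alone at the upper right (3.51 and 1.61), and Gpcpd1, Gde1 and Pnpla7 lie at the lower left.

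Marker lists of cell types are described next, some with many calls at 5 weeks and some with few or 0. Of all genes tested, 22.3% were called higher and 21.5% lower at 5 weeks, and 3.83% and 6.8% at 15 weeks. The summed level of 7 macrophage markers was 885 to 2408 FPKM in CORT_5w and 470 to 904 in VEH_5w, with 5 of 7 called higher at 5 weeks, and 436 to 1231 against 351 to 626 FPKM at 15 weeks, with 1 of 7 called. The sum of 6 endothelial markers was 61.6 to 91.5 FPKM in CORT_5w and 137 to 245 in VEH_5w, with 6 of 6 called lower, and 0 of 6 were called at 15 weeks. The sum of 6 adipocyte markers was 21999 to 29707 FPKM in CORT_5w and 14962 to 25276 in VEH_5w, with 1 of 6, Plin1, called higher at 5 and at 15 weeks (0.73 and 0.63). Fabp4 made up most of that sum, with means of 18759 FPKM in CORT_5w and 13254 in VEH_5w (not called). Adipoq alone of these markers had a negative log2 difference at 5 weeks, -0.39 (not called). T and NK cell markers summed to 1.56 to 2.20 FPKM in CORT_5w and 5.98 to 7.11 in VEH_5w, with 5 of 6 called lower at 5 weeks and 0 at 15 weeks. Fibroblast and preadipocyte markers summed to 679 to 944 FPKM in CORT_5w and 1048 to 2247 in VEH_5w, with 2 of 6 called lower at 5 weeks and 1 at 15 weeks. Dcn made up most of that sum, with means of 588 FPKM in CORT_5w and 1209 in VEH_5w. Pi16 and Col1a1 had positive log2 differences at 5 weeks (0.07 and 0.23, not called), and the other markers of the list had negative ones. Muscle markers summed to 142 to 832 FPKM in CORT_5w (median 168) and 71.5 to 209 in VEH_5w (median 92.4). Of the 4 tested, 2 (Acta1 and Acta2) were called higher at 5 weeks and 0 at 15 weeks. Tagln (0.51) and Myh11 (-0.12) were not called at 5 weeks. Of the Schwann cell markers tested 1 of 3 was called higher and 1 lower at 5 weeks, and of the mesothelial and B cell markers 0 of 5 and 0 of 4 were called at either time. B and plasma cell markers summed to 1.38 to 6.78 FPKM in CORT_5w and 3.99 to 10.3 in VEH_5w. At 15 weeks they summed to 4.25 to 143 FPKM in CORT (median 12.0) and 3.65 to 42.8 in VEH (median 8.01). The part of these cell types in the levels of Slc5a7, Pcyt1a, Lpcat3, Smpd1 or the falling genes was not tested.

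The genes most like Slc5a7 over the 20 libraries, by Pearson correlation of log2(FPKM + 1), were Dgat2 (r = 0.981), the last enzyme of triglyceride synthesis, Oxtr (0.981), the oxytocin receptor, Hspa12a (0.976), Lrrc39 (0.972) and Tuba1a (0.971), an alpha-tubulin. Oxtr had group means of 33.1 FPKM in CORT_5w, 1.91 in VEH_5w, 7.56 in CORT_15w and 2.29 in VEH_15w, and Dgat2 had 479.7, 52.3, 156 and 56.4 FPKM. Those most like Gpcpd1 were Uri1 (0.973), Mccc2 (0.969), a subunit of a leucine-degrading enzyme, Rnf125 (0.967), a ubiquitin ligase, Usp33 (0.966), a deubiquitinase, and Gde1 (0.965). Rnf125 had group means of 23.3, 108, 40.6 and 135 FPKM in the same order. These correlations describe genes across 4 groups that share treatment, time and library, and they carry no test.

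The authors' deposited tables of gene tests were set beside these calls at an adjusted p below 0.05. They called 4 of the 10 genes higher and 2 lower at 5 weeks, and 1 higher and 2 lower at 15 weeks, with the same call as here for 10 of 10 genes at each time. Both rest on the RNA libraries of this series, so the shared calls are not independent evidence. For Chpt1 at 15 weeks the authors' deposited table gives -0.67 (SE 0.18, adjusted p = 0.00304), and for Gpcpd1 it gives -1.72 (SE 0.22) at 5 weeks and -1.79 (SE 0.25) at 15 weeks.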

How the data were processed

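Visceral fat RNA was measured in 20 libraries, 5 per group. The authors deposited FPKM values per gene symbol, and their gene tables hold a mean normalized signal, log2 fold changes, a standard error and test statistic (held here as a score) and p-values, per the file headers. Per the submitters' processing notes, the tools were TopHat, Bowtie, DESeq2 and DiffBind and the builds mm9 and dm3, without stated roles. Reads were recovered from the steps of the FPKM values, each gene taking the largest step found that made its values whole reads (tolerance 0.05). The share of whole reads, 100% of 382438 values above 0, follows from that search and is no check of it. The steps followed a median-ratio scaling. limma 3.58.1 in R 4.3.3 fitted log2(FPKM + 1) in 1 model of 4 group means, for the 15601 genes that reached 0.5 FPKM in 5 or more libraries, two-sided, with Benjamini-Hochberg adjustment and a threshold of 0.05. With 5 libraries a group, the number of libraries rather than counting error limits the precision of well-covered genes. Members and lists were chosen with earlier results of these data known.

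Named genes are the 10 members. Of each wider list they are the 3 with the highest mean FPKM, any called at 15 weeks, and any called at 5 weeks with an absolute log2 fold change of at least 1. For Slc5a7 and Gpcpd1 the 5 most correlated genes of mean FPKM 1 or more were added. Neuron and other cell type markers, overlapping genes and the 3 marker genes of other tissues are named beside the values they bear on, and Slc22a2 was named after its values were seen. The model was tested on simulated data. Alternatives changed the pseudocount, filter, scaling, model, replicate block and libraries. The 26 ChIP and input samples were not analysed here, since their sites carry no gene names and no mm9 annotation was used.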

Additional observations from a re-analysis of the deposited data

Results flagged for a closer look

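Of 140 groups of 5 libraries looked at, 7 had a library far from its 4 fellows by Dixon's criterion. The criterion is set to flag about 1 in 20 groups of normally distributed values. FPKM values need not be so distributed, so no conclusion is drawn from that rate. Chka stood at 11.5 FPKM in VEH_15w replicate 5 against 5.04 to 5.95 in the others, and Chkb at 0.934 FPKM in CORT_5w replicate 5 against 0.558 to 0.651. Mfsd2a stood at 9.69 FPKM in CORT_5w replicate 4 (0.174 to 2.36 in the others) and at 1.23 FPKM in VEH_5w replicate 3 (0.0612 to 0.156). Both of these Mfsd2a libraries are high in Crisp1, an epididymal transcript, at 1430 and 649 FPKM. Ahcy stood at 38.1 FPKM in CORT_5w replicate 2, the library with Alb at 2095 FPKM, against 11.5 to 12.6 in the others. Cept1 was low in CORT_5w replicate 1, at 25.1 FPKM against 30.2 to 32.04, and Ache was high in that library, at 0.600 FPKM against 0.0245 to 0.154.

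Limma's interaction term (15 weeks minus 5 weeks) was called for 3 of the 10 genes and for 8 of the 55 tested genes of the wider lists. Over all genes, 6.57% were called upward and 10.1% downward. Of the 8, 5 were among the genes named by rule. The term includes the 5-week values known when the genes were chosen, so these calls are a description. For the 3 and those 5, the log2 differences of effects were -1.90 for Slc5a7, -0.45 for Pcyt1a, -1.05 for Lpcat3, -0.40 for Lclat1, -0.53 for Enpp2, -0.45 for Sgms1, -0.63 for Smpd1 and 0.45 for Lpcat1. The effect of Lpcat1 was -0.07 at 5 weeks and 0.38 at 15 weeks, and the other 7 had a larger effect at 5 weeks, from 0.30 for Lclat1 to 3.51 for Slc5a7. For Sgms1 the CORT means were alike (20.5 and 20.6 FPKM), and the VEH means were 15.4 FPKM at 5 weeks and 21.5 at 15 weeks. The remaining 3, named after their values were seen, were Chdh (1.34), Lypla1 (-0.79) and Pctp (-0.76). The interactions of the wider genes were not repeated under the alternatives.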

How the results depend on the processing

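Apart from single libraries left out, 57 counts of called genes stayed within 1.5 times, and 2 moved without the 7 libraries: members called between the CORT groups, 5 to 3, and wider pathway genes called at 5 weeks, 17 to 11. A ratio of exactly 1.5 counted as within. Such were the members called without the 7 libraries at 5 weeks, 6 to 4, and at 15 weeks, 3 to 2. All 120 such counts with 1 library left out stayed within 1.5 times. For single genes, 668 values kept direction and side of the threshold, 30 lost the call, 13 gained one and 16 changed sign. The sign changed for Slc44a1 at 15 weeks (0.093 with quantile normalization, 0.088 with total reads, 0.039 without the 7 libraries), Slc44a2 at 5 weeks (-0.014 with quantile normalization, -0.0069 with total reads) and for the interaction (0.087 and 0.14), and the interactions of Gpcpd1 (0.26 without the 7 libraries) and Chkb (-0.091, quantile normalization). It also changed for Chka at 15 weeks (0.025 with total reads, 0.047 without the 7 libraries), Mboat7 at 5 weeks (0.11 without them), Mat2b at 5 weeks (-0.00681 with quantile normalization, -0.027 without them) and Sgms1 at 15 weeks (0.039 and 0.058 with quantile and total-read scaling). The causes were not tested. With 1 library left out, 1417 single-gene values kept direction and side, 29 lost the call, 9 gained one and 25 changed sign: Slc44a1 at 15 weeks (range -0.087 to 0.044), Slc44a2 at 5 weeks (-0.0070 to 0.087), at 15 weeks (-0.043 to 0.070) and for the interaction (-0.093 to 0.031), Chka at 5 weeks (-0.016 to 0.14), at 15 weeks (-0.14 to 0.12) and for the interaction (-0.23 to 0.036), Slc44a3 at 5 weeks (-0.044 to 0.17) and Ptdss1 at 15 weeks (-0.045 to 0.048). Scaling by total reads shifted the median of all genes by 0.13 for the interaction (from -0.02 to 0.11), by 0.11 between the CORT groups and by 0.08 at 15 weeks. Over all genes, calls at 15 weeks numbered 340 higher and 568 lower in a model of the 2 groups alone, and without the 7 libraries 55 and 94, against 598 and 1061. The interaction without them had 214 and 502 against 1025 and 1575, and the change between the CORT groups 1115 and 1572 against 2992 and 3577. At 5 weeks they gave 2434 and 1963 against 3485 and 3350. Deviations of same-numbered libraries from their group means correlated at -0.476 to 0.365 over 10 pairs. The correlation was over 0.1 in 4 of the 10 pairs, and 2 of 10 libraries were closest to their own number. The labels do not say whether the numbers mark pairs. With the replicate number as a block, the members called numbered 6 at 5 weeks, 3 at 15 weeks, 3 for the interaction and 5 between the CORT groups, as without it, and the 15-week calls of Ahcy and Etnk1 were lost (adjusted p = 0.051 and 0.0557). Over all genes the block gave 474 higher and 852 lower at 15 weeks. On the recovered reads voom called 3470 higher and 3456 lower at 5 weeks and 554 and 984 at 15 weeks. The alternatives for histone sites were not run.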
